A study of Mus musculus with 18 samples.

Results

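SR-3420 is a synthetic ligand of ABHD5, the coactivator protein that switches on the triglyceride lipase ATGL, and it starts the breakdown of stored fat without engaging a β-adrenergic receptor. The comparison described here set the 3 samples treated with SR-3420 against the 3 Vehicle samples, both without lipase inhibitors, so 6 of the 18 RNA-seq samples of the series. Samples were chosen by their titles, and each was tied to its column of counts by the sequencing number in its description. The question behind the comparison was which genes respond when lipolysis is started directly at the lipase.

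All samples were BAT-LgT cells, a WT mouse brown preadipocyte line immortalized with SV40 large T antigen, which had been differentiated into brown adipocytes with dexamethasone, 3-isobutyl-1-methylxanthine, T3 and insulin and were used at day 7. SR-3420 was given for 3 h at 10 µM according to the sample labels, while the text of the study gives another concentration, so the dose could not be settled. The Vehicle samples received DMSO for the same time. Values from 3 further groups of the same cells, each of 3 samples, stand beside some results: ISO (100 nM isoproterenol for 3 h, an agonist of all β-adrenergic receptors), and Vehicle or SR-3420 after 1 h with inhibitors of ATGL and of hormone-sensitive lipase (HSL). The cells are 1 immortalized line, the study calls its samples biologically independent experiments, and p-values therefore describe the spread between cultures of this line and not between animals.

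Lipolysis in brown adipocytes releases fatty acids that serve as fuel, as activators of uncoupling protein and as ligands of the peroxisome proliferator-activated receptors (PPARs). A sudden load of fatty acids can also trigger the integrated stress response, in which phosphorylation of the initiation factor eIF2 favours translation of the transcription factor ATF4, which then raises genes for amino acid supply and for secreted stress hormones such as FGF21 and GDF15. Isoproterenol starts the same lipolysis through cAMP and protein kinase A, which in addition act on transcription factors such as CREB.

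Of 20295 genes counted, 12156 had enough reads to be tested, and the 6 libraries held between 10398646 and 19275913 counted reads. The adipocyte markers Adipoq, Plin1, Fabp4, Cidec, Pparg, Lipe and Pnpla2 summed to between 9650 and 10500 RPKM (library-scaled reads per kb of counted transcript) in Vehicle and between 10600 and 11100 RPKM with SR-3420, with 4 of the 7 rising and 3 falling, and preadipocyte markers to between 15.4 and 22.1 RPKM and between 21.9 and 24.5 RPKM. Bulk RNA cannot tell a change in the share of a cell type from a change in RNA per cell, and the part of these marker shifts in the results below was not tested. Brown adipocyte markers were measured for 8 of 9 genes, with Zic1 too low to test, and Ucp1 itself was scarce at 1.64 RPKM in Vehicle. Of 6 macrophage markers only Cd68 could be tested and none of 4 endothelial markers could. Proliferation markers, Mki67 and 4 others, were well expressed, summed to 125 to 163 RPKM in Vehicle and 130 to 163 RPKM with SR-3420, and none of the 5 passed the test.

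SR-3420 changed the expression of a large part of the transcriptome within 3 h. At an adjusted p of at most 0.05, 3165 genes rose (26% of those tested) and 3089 fell (25.4%), and the words rose and fell are used below in this sense. With a change of at least 2-fold in addition, 482 genes were higher (3.97%) and 288 were lower (2.37%). Of these, 72 higher genes averaged under 1 CPM in Vehicle and 85 lower genes under 1 CPM with SR-3420. Over all genes tested 623 and 662 were under 1 CPM in these groups. The fold sizes of such genes rest on few reads in 1 group and are uncertain. The rises went further than the falls: 93 of the 482 higher genes changed at least 4-fold and 25 at least 8-fold, against 16 and 2 of the 288 lower genes. Higher genes had a median log2 fold change of 1.35 and lower genes of -1.20. The 3 SR-3420 values lay outside the range of the 3 Vehicle values for 475 of the higher and 278 of the lower genes (98.5% and 96.5%, and 56.2% over all genes tested). These genes were called on the same values, so this separation largely follows from the call and adds no support.

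Together the 482 higher genes accounted for 35750 CPM (reads scaled to a common library size, as in RPKM but not divided by length) in Vehicle and 104300 CPM with SR-3420, while the 288 lower genes went from 8917 to 3691 CPM. The lower genes were weakly expressed and short: their median level in Vehicle was 7.27 CPM and their median span in the genome 9.07 kb, compared with 20.5 CPM and 22.2 kb for the higher genes and 30.2 CPM and 21.7 kb over all genes tested. The split between directions depended on the scaling. When libraries were scaled by their total counts instead of TMM factors, the median of all genes moved by -0.16 on the log2 scale, and the calls became 335 higher and 501 lower genes. Rises were then 40.1% of the calls, compared with 62.6% under TMM. Changes below are relative to the TMM scale. The largest fitted changes belonged to genes with almost no reads in one group, for which no fold is given: Bdkrb2, a bradykinin receptor, had no reads in Vehicle and 17, 25 and 15 reads with SR-3420, and Mybpc2, a myosin-binding protein, had 12, 12 and 3 reads and then 0, 1 and 0. These 2 genes were chosen after their values were seen.

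**Figure D1:**
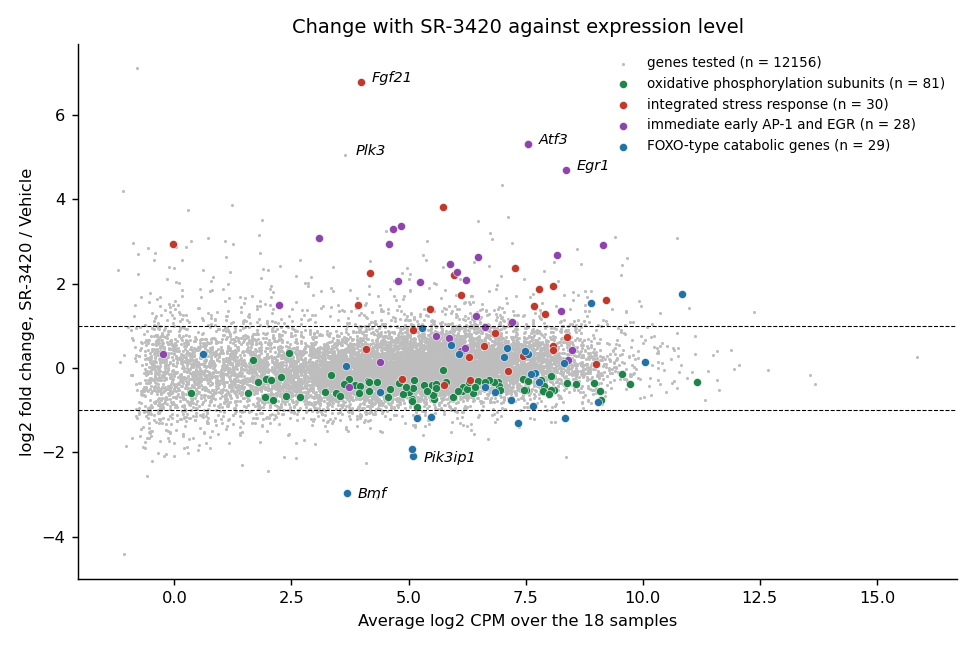
Average log2 CPM over the 18 samples (x axis) and log2 fold change of SR-3420 over Vehicle (y axis) for the 12156 genes tested, with 4 gene groups in colour and dashed lines at a 2-fold change. The integrated stress response and AP-1/EGR genes spread upwards to 6.77 and 5.31, the oxidative phosphorylation subunits sit in a band just below 0 with a median of -0.44, and Bmf and Pik3ip1 are the lowest of the FOXO-type genes.

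Fgf21, Atf3 and Plk3, the 3 genes listed as markers of the response with earlier results known, were its largest rises among genes above the expression minimum for naming. In mm9 they lie at chr7:52869260-52870860, chr1:192994176-193007212 and chr4:116801260-116806557, all on the minus strand. Fgf21, which encodes a hormone that acts on systemic metabolism, was measured at 0.316, 0.541 and 0.353 CPM in Vehicle and at 40.2, 59.9 and 34.8 CPM with SR-3420. It was thus close to silent in each Vehicle sample, with 4 to 7 reads, and reached 547 to 752 reads in the treated samples. Its log2 fold change was 6.77 ± 0.31 (SE, n = 3 per group, adjusted p = 2.44e-13, edgeR), and the baseline of so few reads makes the exact size of this fold uncertain. Atf3, a stress-induced repressor and activator of the ATF family, stood at 15, 15 and 12.1 CPM in Vehicle and at 529, 640 and 511 CPM with SR-3420, a log2 fold change of 5.31 ± 0.16 (adjusted p = 5.33e-16). Plk3, a polo-like kinase of the stress and DNA damage response, went from 1.01, 1.39 and 0.882 CPM to 34.1, 44.8 and 30.6 CPM, a log2 fold change of 5.04 ± 0.24 (adjusted p = 4.41e-13). For all 3 genes the treated samples were far above the Vehicle samples, and treated sample 2 was the highest.

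**Figure D2:**
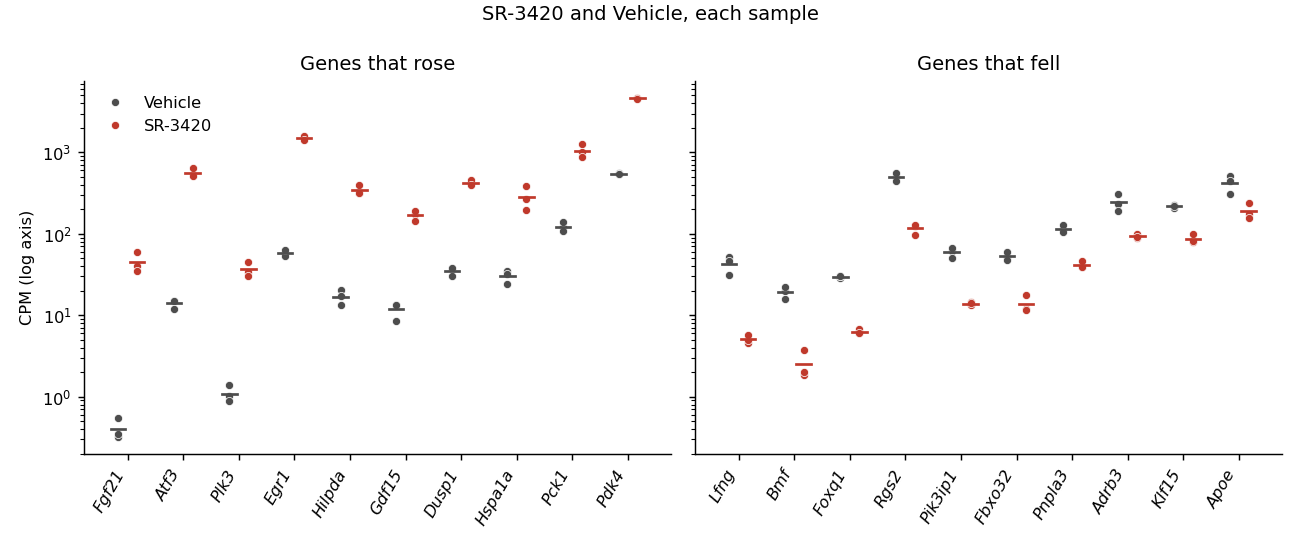
Expression in each of the 3 Vehicle and 3 SR-3420 samples (points; horizontal lines are means) in CPM on a log axis for 10 genes that rose and 10 that fell. The 2 groups do not overlap for any of the 20 genes, which were picked from the genes called. Over all genes tested 56.2% had no overlap. Fgf21 spans from 0.316 to 59.9 CPM.

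Most genes of the integrated stress response rose. Of 30 genes, all tested, 25 rose, 3 fell and 16 were higher by at least 2-fold, with a median log2 fold change of 1.18 against -0.02 over all genes. The transcription factors at its core rose together: Atf4 went from 331, 328 and 365 CPM to 1030, 1091 and 1033 CPM (log2 fold change 1.62 ± 0.08, adjusted p = 5.98e-13). Ddit3, which encodes the ATF4 partner and target CHOP, went from 151, 129 and 135 CPM to 493, 547 and 478 CPM (1.87 ± 0.07, adjusted p = 2.15e-14), although its locus overlaps Mars by 68 bases on the other strand and the use of strand in counting is not stated. Feedback and effector genes of the response followed. Ppp1r15a, the regulatory subunit that directs dephosphorylation of eIF2, rose by 2.37 ± 0.08, and Chac1, a glutathione-degrading enzyme, by 2.20 ± 0.12. Gdf15, a secreted stress hormone, rose from 13.5, 13.5 and 8.47 CPM to 175, 192 and 142 CPM (3.82 ± 0.17, adjusted p = 1.54e-13). Sesn2 and Ddit4, both inhibitors of mTORC1 signalling, rose by 1.72 and 1.28. Atf5, a relative of ATF4, at 0.11 ± 0.11 (adjusted p = 0.444, and -0.0558 under total-count scaling), and the mitochondrial phosphoenolpyruvate carboxykinase Pck2 at -0.07 ± 0.08 (adjusted p = 0.459) did not pass the test. The 3 members that fell were the eIF2 kinases Eif2ak1, Eif2ak2 and Eif2ak3, by 0.29, 0.40 and 0.25, while the kinase Eif2ak4 rose by 0.45. Eif2ak1 overlaps Ankrd61 by 4325 bases on the other strand.

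Genes for amino acid supply and tRNA charging moved with it, 30 of 42 rising, 2 falling and 11 higher by at least 2-fold, with a median of 0.68. The amino acid transporters changed most. Slc7a1, a cationic amino acid carrier, went from 99.3, 106 and 91.9 CPM to 564, 618 and 525 CPM (2.52 ± 0.10, adjusted p = 1.04e-14), Slc7a11, the cystine carrier, from 6.64, 8.04 and 8.91 CPM to 39.8, 40.8 and 30.6 CPM (2.24 ± 0.14), and their heavy-chain partner Slc3a2 rose by 1.95. The tRNA synthetase genes Cars, Yars, Nars and Iars rose by 1.55, 1.14, 1.03 and 1.00. Asns, the asparagine synthetase and a classical ATF4 target, changed less, from 84.2, 78.8 and 91.4 CPM to 155, 156 and 142 CPM (0.83 ± 0.08, adjusted p = 1.68e-08).

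Promoter windows of 5 genes that rose are printed here because they hold letters of the motifs that were counted over all promoters. They run from 250 bases before to 50 bases after the annotated start, come from RefSeq on GRCm38.p6 and are written in the direction of the gene, with motif letters in capitals. Fgf21, Atf3 and Slc7a11 stand for the integrated stress response, with the C/EBP-ATF composite TGATGCAA or its reverse complement TTGCATCA, Dusp8 for the MAP kinase phosphatases described further on, with the cAMP response element (CRE) TGACGTCA, and Ciart for the clock genes, with the E-box CACGTG.
Fgf21 (chr7:45615441-45615740, minus strand): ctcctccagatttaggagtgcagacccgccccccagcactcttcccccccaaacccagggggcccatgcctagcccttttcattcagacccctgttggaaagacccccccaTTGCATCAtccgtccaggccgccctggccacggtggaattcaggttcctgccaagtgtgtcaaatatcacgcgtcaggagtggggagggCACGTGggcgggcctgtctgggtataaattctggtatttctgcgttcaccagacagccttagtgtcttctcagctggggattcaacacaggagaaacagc
Atf3 (chr1:191183284-191183583, minus strand): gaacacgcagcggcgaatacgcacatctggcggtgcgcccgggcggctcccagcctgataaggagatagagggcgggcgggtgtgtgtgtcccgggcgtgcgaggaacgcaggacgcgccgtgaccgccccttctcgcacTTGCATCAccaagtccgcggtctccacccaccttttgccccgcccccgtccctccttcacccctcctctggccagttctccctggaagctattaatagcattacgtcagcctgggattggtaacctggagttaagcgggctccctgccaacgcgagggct
Slc7a11 (chr3:50443564-50443863, minus strand): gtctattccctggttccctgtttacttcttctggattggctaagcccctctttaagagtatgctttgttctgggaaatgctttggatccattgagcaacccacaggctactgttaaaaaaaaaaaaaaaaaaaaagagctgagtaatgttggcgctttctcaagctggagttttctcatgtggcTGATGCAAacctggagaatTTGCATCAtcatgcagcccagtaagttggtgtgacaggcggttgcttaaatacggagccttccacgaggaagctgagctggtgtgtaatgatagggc
Dusp8 (chr7:142095235-142095534, minus strand): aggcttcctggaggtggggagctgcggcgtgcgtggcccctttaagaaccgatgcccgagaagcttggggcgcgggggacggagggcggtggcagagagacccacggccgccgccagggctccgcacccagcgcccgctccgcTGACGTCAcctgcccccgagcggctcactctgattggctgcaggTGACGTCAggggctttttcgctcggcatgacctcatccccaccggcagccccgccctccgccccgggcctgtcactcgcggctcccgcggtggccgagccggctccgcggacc
Ciart (chr3:95882179-95882478, minus strand): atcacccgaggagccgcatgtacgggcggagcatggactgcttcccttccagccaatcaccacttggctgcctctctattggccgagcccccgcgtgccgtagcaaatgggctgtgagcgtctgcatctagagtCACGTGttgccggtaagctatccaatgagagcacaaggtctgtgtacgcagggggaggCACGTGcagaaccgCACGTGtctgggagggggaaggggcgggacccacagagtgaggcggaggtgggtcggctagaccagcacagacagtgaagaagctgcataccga
The composite begins 139 bases upstream of the start of Fgf21, 110 bases upstream of that of Atf3, and 66 and 47 bases upstream of that of Slc7a11. Fgf21 also holds an E-box 50 bases upstream. The 2 CREs of Dusp8 begin 107 and 63 bases upstream, and the 3 E-boxes of Ciart 116, 58 and 44 bases upstream.

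Windows were available for 9729 of the 12156 genes tested, 377 of the 482 higher and 207 of the 288 lower genes, and both strands were searched. The C/EBP-ATF composite occurred in 2.39% of the higher, 0.966% of the lower and 0.719% of all tested genes, which is 9, 2 and 70 genes. The CRE occurred in 6.90%, 1.93% and 3.64%, the AP-1 site TGACTCA in 8.75%, 7.25% and 4.55%, and the E-box in 19.4%, 8.21% and 11.8%. The direct repeat AGGTCANAGGTCA bound by PPARs was present in 0.0411% of all tested genes and in none of the higher or lower genes. The heat shock element GAANNTTCNNGAA occurred in 0.531% of the higher, 0.483% of the lower and 0.596% of all tested genes, and the NF-Y box CCAAT in 46.2%, 41.5% and 43.7%. The endoplasmic reticulum stress element, which contains the NF-Y box, occurred in 1 higher gene, no lower gene and 17 of all tested genes. This was 0.265% of the higher and 0.175% of all tested genes. These shares are descriptions of letters in short windows, with no test, and say nothing of binding.

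**Figure D3:**
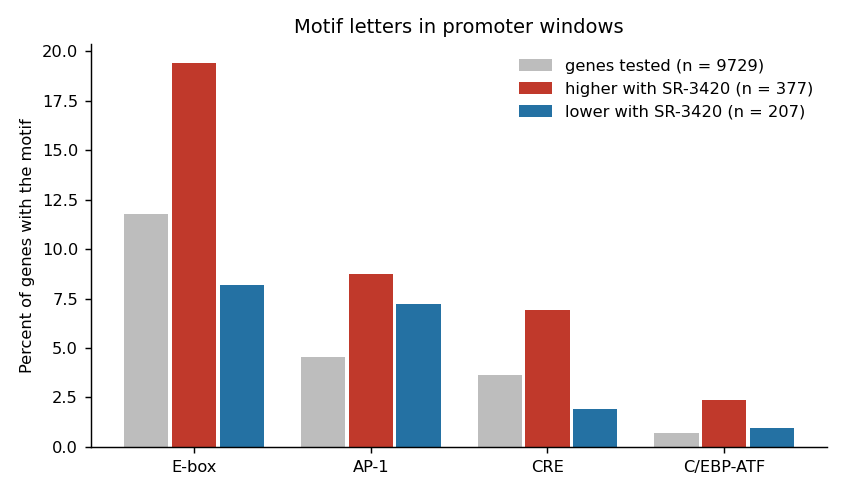
Percent of genes whose promoter window holds the letters of each motif on either strand (y axis, from 0), for 9729 tested, 377 higher and 207 lower genes. The bar of the higher genes is the tallest for each of the 4 motifs, from 2.39% for C/EBP-ATF to 19.4% for the E-box. The 4 are a selection of the motifs counted. Of those not drawn, the heat shock element (0.531% against 0.596%) and the direct repeat (none against 0.0411%) were rarer in higher than in tested genes. The NF-Y box (46.2% against 43.7%) and the endoplasmic reticulum stress element (0.265% against 0.175%) were more frequent.

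Chaperone genes of both the endoplasmic reticulum and the cytosol rose in part. Of 38 genes for folding and degradation of endoplasmic reticulum proteins, 15 rose, 7 fell and 2 were higher by at least 2-fold, with a median of 0.00 that moved to -0.16 under total-count scaling, where 11 rose and 13 fell. The summed level of the list was 5686 to 5860 CPM in Vehicle and 7608 to 8001 CPM with SR-3420. The 2 were the oxidase Ero1l (1.82 ± 0.13) and the cochaperone Dnajb9 (1.24 ± 0.13). Hspa5, the main chaperone of this compartment, went from 691, 649 and 679 CPM to 1155, 1223 and 1021 CPM (0.75 ± 0.07, adjusted p = 1.37e-08). Of 24 cytosolic heat shock genes 16 rose, 1 fell and 9 were higher by at least 2-fold, with a median of 0.57. The inducible HSP70 genes led them: Hspa1a went from 34.9, 32.3 and 24.2 CPM to 271, 384 and 196 CPM (3.21 ± 0.21) and Hspa1b from 145, 133 and 128 CPM to 931, 1218 and 700 CPM (2.81 ± 0.15). Their near-identical sequences mean that reads may be split between them in an uncertain way. The small heat shock gene Hspb1, the cochaperone Dnajb1 and the cytosolic HSP90 gene Hsp90aa1 rose by 2.23, 1.68 and 1.34. In each of these 5 genes treated sample 2 was the highest and treated sample 3 the lowest, and the summed heat shock list stood at 8114, 9235 and 6827 CPM in the 3 treated samples. The study's own list of 24 unfolded protein response markers rose in all 24 members, 15 of them by at least 2-fold, but the study had applied this list to these same samples, so its direction is no independent evidence.

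PPAR target genes, which cover fatty acid handling, rose in 23 of 35 tested cases and fell in 3, with 12 higher by at least 2-fold and a median of 0.60. Of 26 genes for lipases and droplet coat proteins 12 rose and 6 fell, 4 and 1 of them by at least 2-fold, with a median of 0.25. Plin2, a droplet coat protein, went from 347, 320 and 287 CPM to 1871, 2192 and 1759 CPM (2.61 ± 0.12, adjusted p = 1.56e-13). Hilpda, which inhibits ATGL, went from 20.2, 13.2 and 17.2 CPM to 318, 397 and 317 CPM (4.34 ± 0.20, adjusted p = 3.75e-13). G0s2, another ATGL inhibitor, went from 391, 382 and 246 CPM to 1101, 1120 and 1063 CPM (1.69 ± 0.18), and Angptl4, an inhibitor of lipoprotein lipase, rose by 1.39 ± 0.14. Per length, G0s2 rose from 403 to 1299 RPKM and Plin2 from 169 to 1028 RPKM, among the largest gains in the data. The lipases themselves moved little: Lipe, which encodes HSL, rose by 0.77, Pnpla2, which encodes ATGL, fell by 0.24, and Abhd5, the target of the compound, stood at 0.16 ± 0.08 (adjusted p = 0.122), which turned to -0.0021 under total-count scaling. Pnpla3, a relative of ATGL, went the other way, from 113, 128 and 104 CPM to 39.5, 39.6 and 46.1 CPM (-1.46 ± 0.13, adjusted p = 8.21e-09).

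Genes that set the choice of fuel moved in both directions. Pdk4, the kinase that shuts off pyruvate dehydrogenase, rose from 552, 547 and 535 CPM to 4650, 4646 and 4531 CPM (3.08 ± 0.10, adjusted p = 8.69e-16), and the replicates within each group were almost equal. None of the other 13 genes for pyruvate dehydrogenase kinases, phosphatases and subunits reached 2-fold. Among 36 fatty acid oxidation genes 11 rose, 16 fell and 3 were higher by at least 2-fold, with a median of -0.12. The 3 included Acsl1 (1.43 ± 0.07) and Acsl4 (1.00 ± 0.11), which activate fatty acids. Cpt1a, which controls entry of fatty acids into mitochondria, rose by 0.78 and its inner-membrane partner Cpt2 fell by 0.56. Glyceroneogenesis and re-esterification genes were also raised at single steps. Pck1, the cytosolic phosphoenolpyruvate carboxykinase, went from 123, 107 and 138 CPM to 1009, 884 and 1255 CPM (3.10 ± 0.19, adjusted p = 1.54e-11), and the glycerol-3-phosphate acyltransferase Agpat9 and the glycerol kinase Gyk rose by 1.74 and 1.38.

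The acyl-CoA thioesterases, which release free fatty acids from their CoA esters, contained a cluster of responding neighbours on chromosome 12. Acot2, Acot1 and Acot4, next to each other at chr12:85328811-85385673 (mm9), rose by 1.07 ± 0.09, 1.20 ± 0.12 and 2.01 ± 0.24. Acot4 was low, at 1.64, 0.696 and 1.85 CPM in Vehicle and 5.36, 5.57 and 5.98 CPM with SR-3420. These genes are close copies of each other, so the share of reads given to each is uncertain. Of 13 family members tested 5 rose (these 3 and the adjacent pair Acot5 and Acot6) and 1, Acot13, fell. Over the genome 28 of 12136 pairs of neighbouring tested genes were both higher by at least 2-fold and 18 both lower.

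Immediate early genes rose almost throughout. Of 28 AP-1, EGR and related genes 25 rose, none fell and 18 were higher by at least 2-fold, with a median of 1.75. Egr1, a zinc finger factor induced by growth signals, went from 57.8, 53.9 and 64 CPM to 1539, 1584 and 1402 CPM (4.69 ± 0.18, adjusted p = 1.55e-14). Its relative Egr2 rose by 3.36 ± 0.18. Of the AP-1 subunits, Jun went from 184, 211 and 160 CPM to 1409, 1464 and 1322 CPM (2.92 ± 0.10), Fos from 9.35, 12.4 and 7.06 CPM to 75.5, 87.6 and 61.5 CPM (2.95 ± 0.29), and Fosl1 and Fosb rose by 3.29 and 3.08. Fosl1 overlaps Ccdc85b by 2776 bases on the other strand, which leaves its count uncertain. The brakes on MAP kinase signalling rose alongside, 12 of 15 genes, with 1 fall and a median of 1.97. Dusp1, a nuclear phosphatase, went from 37.3, 38.0 and 30.1 CPM to 414, 457 and 399 CPM (3.59 ± 0.16, adjusted p = 2.38e-13), the Sprouty inhibitor Spry4 from 20.7, 20.1 and 19.8 CPM to 218, 231 and 230 CPM (3.49 ± 0.12), and Dusp8 rose by 3.25 ± 0.15. Dusp14 was the member that fell, by 1.27 ± 0.11. Growth arrest genes included Btg2 and Cdkn1a, an inhibitor of cyclin-dependent kinases, which rose by 2.69 and 1.56, and over the 29 of that list 15 rose and 8 fell.

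The thermogenic programme was touched in part. Of 24 genes of brown fat identity and heat production 11 rose, 7 fell and 8 passed 2-fold, 7 of them upwards, with a median of 0.22. Ucp1, the uncoupling protein, rose from 2.34, 3.17 and 2.56 CPM to 10.7, 16.9 and 8.13 CPM (2.11 ± 0.34, adjusted p = 2.17e-05), which left it at 7.23 RPKM. Elovl3, a fatty acid elongase of activated brown fat, rose by 2.53 ± 0.14, Ppara, the PPAR that drives fat oxidation, by 1.5 ± 0.15 and the coactivator Ppargc1a by 1.01 ± 0.08. Pparg, the master regulator of adipocytes, went from 546, 498 and 567 CPM to 303, 292 and 310 CPM (-0.83 ± 0.09, adjusted p = 1.98e-07). Adrb3, the β3-adrenergic receptor, fell from 235, 305 and 189 CPM to 99.9, 88.7 and 90.8 CPM (-1.39 ± 0.15, adjusted p = 1.55e-07).

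Genes known to respond to cAMP rose in 17 of 31 cases and fell in 5, with a median of 0.24. Nr4a1, an orphan nuclear receptor, went from 14.5, 13.7 and 13.5 CPM to 109, 116 and 121 CPM (3.05 ± 0.11, adjusted p = 3.70e-15), and Pde4d, a cAMP-degrading phosphodiesterase, rose by 1.55. Rgs2, a regulator of G protein signalling, moved down from 496, 447 and 559 CPM to 125, 97.6 and 128 CPM (-2.10 ± 0.12, adjusted p = 1.29e-11), which was 1 of the largest losses per length in the data, from 166 to 38.8 RPKM.

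The falls of at least 2-fold included several genes that FOXO factors are known to drive and several developmental regulators. Of 29 FOXO-type catabolic genes 14 fell, 9 rose and 7 were lower by at least 2-fold, with a median of -0.14. Bmf, a death-promoting BH3 protein, went from 19.9, 15.7 and 22.1 CPM to 1.84, 3.74 and 1.99 CPM (-2.96 ± 0.24, adjusted p = 2.04e-09). Pik3ip1, an inhibitor of PI3-kinase, went from 60.7, 66.4 and 51.1 CPM to 13.3, 14.5 and 14.0 CPM (-2.09 ± 0.13). Fbxo32, a ubiquitin ligase of muscle wasting, went from 51.9, 47.5 and 60 CPM to 11.8, 11.6 and 17.9 CPM (-1.92 ± 0.22). Klf15, Sesn1, Trp53inp1 and the BH3 gene Bcl2l11 fell by 1.31, 1.19, 1.18 and 1.17. The 2 members of the list that rose by at least 2-fold were Txnip, an inhibitor of thioredoxin, by 1.75 and the insulin receptor substrate Irs2 by 1.54. The list did not hold Pdk4 and Pck1, which rose by 3.08 and 3.10. The summed level of the list, to which the abundant Txnip contributed 1184 to 1191 CPM in Vehicle and 3842 to 4124 CPM with SR-3420, was 6278 to 6556 CPM in Vehicle and 8504 to 9145 CPM with SR-3420.

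Outside that list Lfng, the fringe glycosyltransferase that modifies Notch receptors, fell from 51.8, 46.4 and 31.0 CPM to 4.56, 4.94 and 5.66 CPM (-3.08 ± 0.24, adjusted p = 7.75e-10). Its tested neighbour Chst12, a chondroitin sulfotransferase, fell by 1.59, and the pair spans chr5:140981563-141091499 (mm9). Over 18 Notch genes 7 rose, 6 fell and 3 (Lfng, Notch4 and Hes6) were lower by at least 2-fold. Foxq1, a forkhead factor, went from 28.4, 30.2 and 30.6 CPM to 6.10, 6.77 and 6.03 CPM (-2.24 ± 0.17). Elf3, Fbxo31, Rgma, Trim67, Trp63, Card6, Ptgfr and Hoxa3 completed the 15 largest falls, between -1.79 and -1.49. The count of Hoxa3 cannot be told apart from those of Hoxa4, Hoxa5 and Hoxa6, whose annotated spans it overlaps on the same strand. By level, the largest losses included Apoe, an apolipoprotein, from 337 to 152 RPKM, the glutathione transferase Gstm1 from 185 to 81.2 RPKM and Id2, an inhibitor of helix-loop-helix factors, from 104 to 47.4 RPKM.

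Nuclear genes of mitochondrial respiration declined a little and together. Of 81 oxidative phosphorylation subunits 60 fell (74.1%), 1 rose and none reached 2-fold, with a median of -0.44. The summed level of the list was 12654, 11037 and 10486 CPM in Vehicle and 8298, 9279 and 8242 CPM with SR-3420, so the groups did not overlap, and Vehicle sample 1 was the highest. Without that sample 47 of the subunits fell and the median was -0.38. Ndufa13, a complex I subunit, went from 75.0, 61.9 and 73.5 CPM to 43.1, 47.3 and 40.6 CPM (-0.69 ± 0.09, adjusted p = 1.14e-06), though it overlaps Tssk6 by 344 bases on the other strand. Cox8a, a subunit of cytochrome oxidase, varied more, from 1028, 616 and 468 CPM to 337, 535 and 374 CPM, and its groups overlapped. Of 77 mitochondrial ribosomal proteins 45 fell (58.4%) and 1 rose, with a median of -0.33, and Mrpl36 went from 46.1, 44.5 and 41.7 CPM to 27.4, 24.4 and 28.2 CPM (-0.72 ± 0.08). The 77 cytosolic ribosomal proteins fell in 10 cases and rose in 8, with a median of -0.10, but the falls numbered 30 under total-count scaling, 4 without Vehicle sample 1, 17 without Vehicle sample 3, 5 without SR-3420 sample 1 and 2 without SR-3420 sample 3. Of 41 genes that build ribosomes 26 rose and 3 fell, led by the RNA polymerase I factor Taf1d (1.89 ± 0.10) and the processing factor Rrp12 (1.39 ± 0.14). Slc25a25, a calcium-dependent carrier of ATP-Mg across the inner mitochondrial membrane, stood out among 42 mitochondrial carriers with a rise from 32.1, 28.2 and 31.8 CPM to 236, 242 and 241 CPM (2.97 ± 0.08, adjusted p = 4.06e-17), although it overlaps Naif1 by 1014 bases on the other strand.

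**Figure D4:**
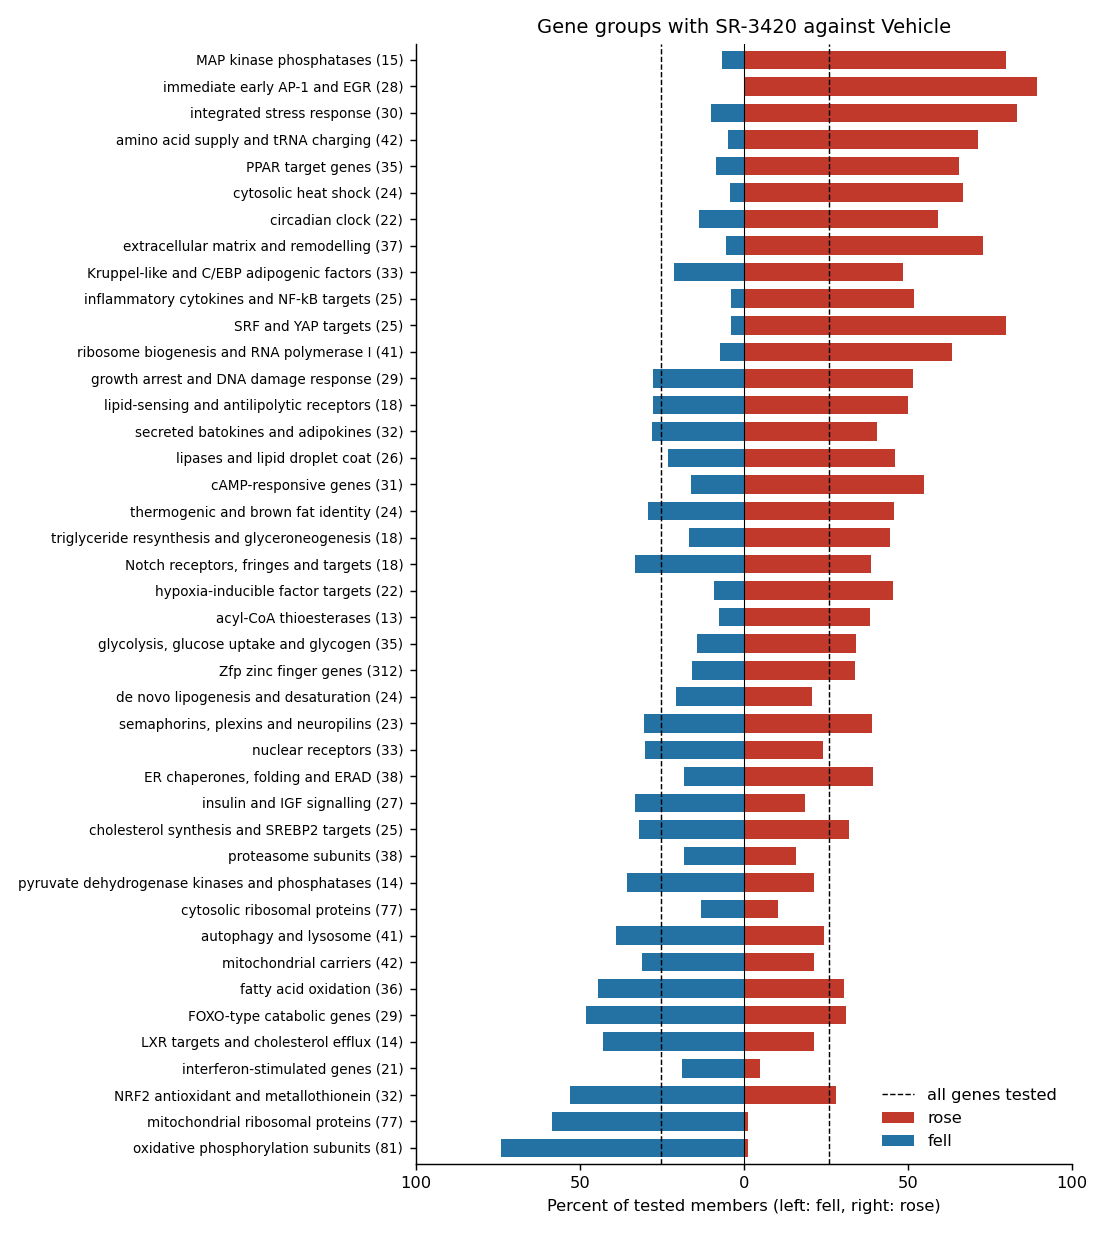
Percent of the tested members (number in brackets) of each gene group that rose (right) or fell (left) with SR-3420, with groups ordered by their median log2 fold change and dashed lines at the 26% and 25.4% of all tested genes. The AP-1/EGR, integrated stress response, MAP kinase phosphatase and SRF/YAP groups rose in 80.0% to 89.3% of members, and the oxidative phosphorylation subunits fell in 74.1%.

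Matrix and cytoskeletal genes rose broadly. Of 37 extracellular matrix genes 27 rose, 2 fell and 10 were higher by at least 2-fold, with a median of 0.48. Thbs1, a matricellular thrombospondin, went from 419, 382 and 445 CPM to 1929, 2075 and 1702 CPM (2.19 ± 0.11, adjusted p = 4.57e-13), and the laminin chain Lamb1 rose by 1.46 and the collagen chain Col6a3 by 1.32. Of 25 targets of serum response factor and YAP 20 rose and 1 fell, and 1, the YAP relative Wwtr1, passed 2-fold at 1.08 ± 0.07. Under total-count scaling 14 of the 25 rose, 1 fell and none passed 2-fold, and their median went from 0.44 to 0.28. Secreted factors were mixed, with 13 of 32 rising and 9 falling. Adipsin (Cfd) and resistin (Retn) fell by 0.76 and 0.81, and Adipoq by 0.52. Of 25 inflammatory genes 13 rose and 1 fell, among them the epidermal growth factor relative Ereg (1.83) and the prostaglandin synthase Ptgs2 (1.40), and the cytokine Lif rose from 0.379, 0.696 and 0.353 CPM to 3.31, 4.38 and 4.56 CPM. Of 21 interferon-stimulated genes 1 rose and 4 fell.

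Several smaller circuits showed rises in some members. Of 22 clock genes 13 rose and 3 fell, with a median of 0.49. Ciart, a repressor within the clock, went from 6.51, 5.80 and 6.44 CPM to 19.3, 15.9 and 17.7 CPM (1.49 ± 0.16, adjusted p = 1.51e-07), and Per2 and the heme receptor Nr1d1 rose by 1.14 and 1.05, while Per3 fell by 0.94. Of 35 genes of glucose use 12 rose and 5 fell, with a median of 0.16 that turned to -0.0033 under total-count scaling. Pfkfb3, which makes the activator of glycolysis fructose 2,6-bisphosphate, rose from 533, 535 and 545 CPM to 1567, 1582 and 1709 CPM (1.59 ± 0.07), and the kinase Hk2 and the carrier Slc2a1 both rose by 1.11. NRF2 and metallothionein genes fell more often than they rose, 17 against 9 of 32, although Osgin1 rose by 3.01 ± 0.13 and Hmox1, heme oxygenase, by 1.81 ± 0.23. Cholesterol synthesis genes rose and fell in 8 cases each of 25, with Insig1, the sterol-regulated retention protein, at 1.04 ± 0.07. Krüppel-like and C/EBP factors rose in 16 of 33 cases and fell in 7, with Klf4 and Klf11 up by 2.24 and 1.71.

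With ATGL and HSL inhibited, SR-3420 changed much less. In samples that the comparison above did not use, 363 genes rose (2.99%) and 165 fell (1.36%) when SR-3420 was set against Vehicle, both with inhibitors. Together these 528 genes became 297 without Lipase Inh. + Vehicle sample 1 and 344 under total-count scaling. The median log2 fold change there of the 482 genes that had been higher was 0.27, with 116 of them rising and none falling. Of the 288 lower genes 22 fell and 2 rose, with a median of -0.17. Of the integrated stress response genes 13 of 30 rose and none fell, and of the PPAR targets 11 of 35 rose, while of 24 cytosolic heat shock genes and 81 oxidative phosphorylation subunits none passed the test in either direction. Of the gene groups examined, falls were most frequent among the cholesterol synthesis genes, 17 of 25 with a median of -0.46 and no rise, and 9 of 24 lipogenesis genes fell and 1 rose. Without Lipase Inh. + SR-3420 sample 2, the smallest library (4263755 counted reads), 14 of the cholesterol synthesis genes fell, the PPAR targets rose in 6 of 35 cases and the integrated stress response genes in 11 of 30, and under total-count scaling with all samples the 2 groups rose in 5 and 7 cases.

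The difference between the effect with and without inhibitors was tested as an interaction. It was -5.13 ± 0.73 for Fgf21 (adjusted p = 2.02e-05), -4.50 ± 0.23 for Atf3 (adjusted p = 1.06e-11) and -4.67 ± 0.40 for Plk3 (adjusted p = 3.47e-08) on the log2 scale. These genes were known for their large rise without inhibitors, which is subtracted in the interaction. A negative value was thus favoured by the choice of genes, and its p-value adds little support. With inhibitors Fgf21 was higher by 1.64 ± 0.47 (adjusted p = 0.0476) and Atf3 by 0.80 ± 0.16 (adjusted p = 0.00468), and Plk3 was at 0.37 ± 0.29 (adjusted p = 0.600). The value of Fgf21 is uncertain, as its p lay close to the threshold and its mean in Vehicle without inhibitors was 0.403 CPM. In Lipase Inh. + SR-3420 sample 2, the smallest library, 3 reads equal 0.799 CPM. For a few genes the effect was of like size in both settings. Egln3, the oxygen-sensing hydroxylase, rose by 1.05 without and 1.08 ± 0.10 with inhibitors (interaction 0.03 ± 0.13, adjusted p = 0.909), and Ptgs2 by 1.40 and 1.11 ± 0.16 (interaction -0.29 ± 0.23, adjusted p = 0.374), though such p-values do not show that the effects were equal.

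**Figure D5:**
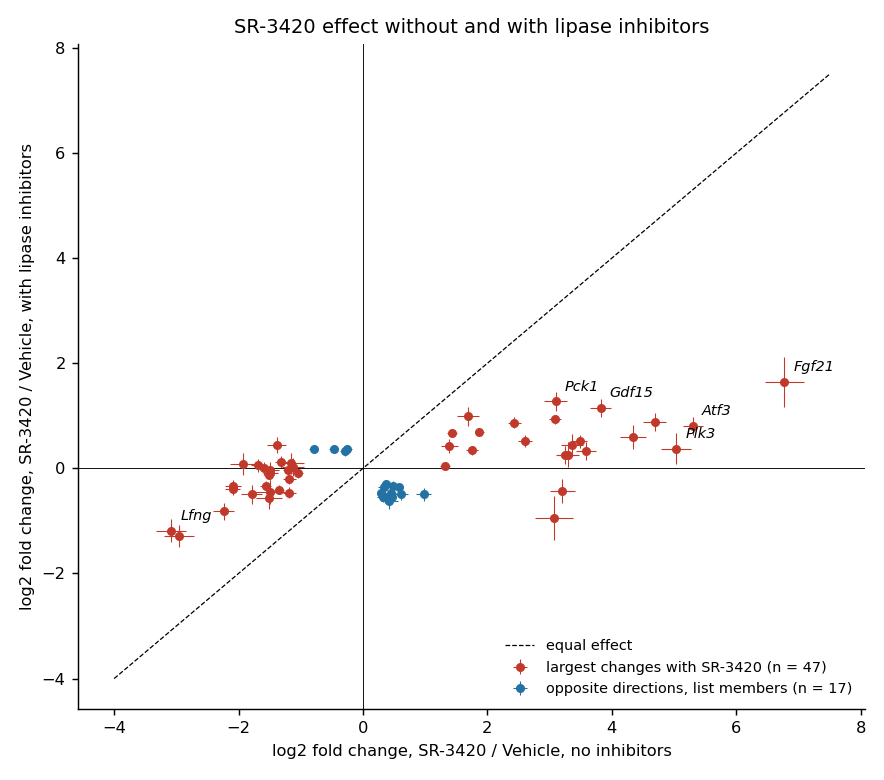
Log2 fold change with SR-3420 without inhibitors (x axis) and with inhibitors of ATGL and HSL (y axis), with SE bars, for the 47 genes with the largest changes and for 17 list members that passed the test in opposite directions. The dashed line marks equal effects, Fgf21 lies at 6.77 and 1.64, and the 17 genes lie above 0 on one axis and below 0 on the other. The 47 genes were chosen by their change without inhibitors, which favours points nearer to 0 on the y axis.

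In a direct comparison with ISO, 1916 genes had more RNA with ISO (15.8%) and 1693 had more with SR-3420 (13.9%). Some leading genes did not differ past the test: ISO minus SR-3420 was -0.06 ± 0.17 on the log2 scale for Fgf21 (adjusted p = 0.837), -0.09 ± 0.17 for Hilpda (adjusted p = 0.721) and -0.12 ± 0.11 for Plin2 (adjusted p = 0.455). Thermogenic and cAMP genes stood higher with ISO, by 4.97 ± 0.23 for Ucp1 (adjusted p = 6.60e-13), 2.83 ± 0.08 for Ppargc1a, 2.70 ± 0.09 for Pde4d and 1.84 ± 0.09 for Nr4a1, and of the 31 cAMP-responsive genes ISO gave more RNA for 19 and SR-3420 for 4. Oxidative phosphorylation subunits were higher with ISO in 64 of 81 cases and with SR-3420 in none. The immediate early genes stood higher with SR-3420 in 17 of 28 cases and with ISO in 2: ISO minus SR-3420 was -2.87 ± 0.17 for Egr1 (adjusted p = 2.77e-11) and -2.46 ± 0.17 for Egr2. Integrated stress response genes were higher with SR-3420 in 13 of 30 cases and with ISO in 1, with differences of -1.30 ± 0.11 for Chac1, -1.20 ± 0.07 for Ddit3 and -1.11 ± 0.14 for Gdf15. For the ATGL inhibitor G0s2 and for Angptl4 the difference was -1.96 ± 0.18 and -1.80 ± 0.14.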

How the data were processed

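RNA of 18 cultures was sequenced from TruSeq libraries without molecular identifiers. The authors aligned reads with STAR 2.4.2a to mm9 (the labels also list hg19), kept 1 read per position and length with HOMER, and deposited raw counts per RefSeq gene from iRNA-seq. Whether strand was used is not stated. Removing stacked reads would lower the counts of abundant short genes, and whether it did so in these counts was not tested.

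From these counts edgeR 4.0.16 (R 4.3.3) was run on all 18 samples with a mean per group: filterByExpr (minimum count 10, total 15), TMM factors, quasi-likelihood tests and Benjamini-Hochberg adjustment over 12156 genes. Calls needed an adjusted p of at most 0.05, and where stated a log2 fold change of at least 1. On simulated counts of 12046 genes for this comparison, 190 of 200 genes changed 3-fold were recovered (95%), with 1 false call. These 200 genes went up and down in equal number and all others were unchanged. The real response was far broader, so the simulation does not cover the dependence on scaling. Named genes were the 15 largest changes per direction at an average log2 CPM of at least 3, the 10 largest RPKM changes per direction, the marker genes and members of each list, of which a few are not reported here. Members and lists were chosen with earlier results of these data known. Lists share members, so their counts are not separate evidence. Fgf21 is the highest member of the stress response, thermogenic and secreted lists, and Hilpda of the PPAR and the lipase and droplet lists. Alternatives were DESeq2 1.42.0, other scaling and filters, a replicate block and samples left out. The SE of a log2 fold change was its absolute size divided by the square root of the quasi-likelihood F. It thus draws on the spread shared by all 18 samples and not on the 3 cultures per group alone. Intervals of the folds cover the spread between cultures.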

Additional observations from a re-analysis of the deposited data

Results flagged for a closer look

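The effect of SR-3420 differed with and without lipase inhibitors by an interaction test (edgeR, adjusted p of at most 0.05, at least 2-fold) in 464 genes. It was more negative with inhibitors in 294 and more positive in 170, and under total-count scaling in 238 and 225. For the 3 leading genes the difference, with inhibitors minus without, was -5.13 for Fgf21, -4.50 for Atf3 and -4.67 for Plk3 on the log2 scale. Their large rise without inhibitors, for which they lead, is part of this difference, so its negative sign was favoured by the choice.

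A smaller set passed the test in both settings but in opposite directions: 48 of 426 genes, 28 of them higher without and lower with inhibitors. All 48 had an interaction past the test, but choosing genes with opposite signs in both settings makes this nearly certain, so it adds no support. Of the 48 genes 17 belonged to the gene groups described above. Sterol and fatty acid synthesis genes were among them. Sqle, an early enzyme of sterol synthesis, rose by 0.45 without and fell by 0.47 with inhibitors (difference -0.92), and the same held for Cyp51 (-1.02), Lss (-0.81), Sc5d (-0.98), Hsd17b7 (-0.76), the acetyl-CoA synthetase Acss2 (-0.88) and the elongase Elovl6 (-0.89). Signalling and matrix genes that went up without and down with inhibitors were Adamts1 (-1.47), Sema7a (-1.11), S1pr1 (-1.04), Csf1 (-0.92), Errfi1 (-0.70) and Trp53inp2 (-0.67). The reverse pattern was found in the carrier Slc25a42 (1.16), the peptide hormone gene Apln (0.84), the adenosine receptor Adora1 (0.62) and the potassium channel Kcnk3 (0.61). Each of these changes was below 2-fold within its own setting. The smallest library of the series, Lipase Inh. + SR-3420 2, in which Lars2 took 18.3% of counts, belongs to the inhibitor arm, and its part in these differences was not tested gene by gene.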

How the results depend on the processing

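Numbers of genes called in the comparison of SR-3420 with Vehicle held under most settings: 483 higher and 277 lower with DESeq2, 489 and 284 with RLE factors, 504 and 308 without a filter, 471 and 279 with a stricter filter, 458 and 278 with only the 6 samples, and 460 to 516 and 265 to 325 when 1 culture was left out. Total-count scaling gave 501 lower genes, and for ISO against SR-3420 178 genes lower with ISO instead of 99. With inhibitors, the 26 genes higher by at least 2-fold became 16 under total-count scaling, 48 without a filter, and 20 to 40 when 1 culture was left out, with 40 without Lipase Inh. + SR-3420 replicate 3. Replicate numbers are shared between groups, and deviations of same-numbered Vehicle and SR-3420 samples correlated at -0.114, 0.111 and 0.168. Over all groups the mean correlation was -0.0118 for number 1, 0.15 for number 2 and 0.19 for number 3. The lowest was 0.0745 for number 2 and 0.114 for number 3. Between Vehicle and SR-3420, 3 of 6 samples correlated best with their own number. The main fit did not pair samples by number. The fit with the replicate block gave 486 higher and 292 lower genes, and 40 higher genes with inhibitors. With the block, genes past the adjusted p alone went from 6254 to 6750, and with inhibitors from 528 to 852. They went from 3321 to 4126 for the interaction and from 3609 to 4376 for ISO against SR-3420.

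Medians that changed sign under total-count scaling were those of the endoplasmic reticulum chaperones (-0.1588), acyl-CoA thioesterases (-0.0022), lipogenesis genes (-0.0791), genes of glucose use (-0.0033), nuclear receptors (-0.144), semaphorins (-0.0981), Zfp genes (-0.0569) and proliferation markers (-0.1251), as did the log2 fold changes of Abhd5 (-0.0021) and Atf5 (-0.0558). The same scaling cut rises to 6 among fatty acid oxidation and 4 among Notch genes, and raised falls to 7 among interferon-stimulated and 6 among clock genes. The median of the cholesterol genes ranged from -0.0787 to 0.0345 when 1 culture was left out. The cause was not tested. With 3 cultures per group of 1 line, small changes in genes of few reads were not detectable at this depth.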

Other observations

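Receptors for lipid metabolites were measured on both sides of the test. Over all genes tested 26% rose and 25.4% fell. Of 18 lipid-sensing and antilipolytic receptors 9 rose and 5 fell, with 4 rises under total-count scaling and 2 falls without Vehicle sample 2. Ffar4, a receptor of long-chain fatty acids, rose by 0.37 without and by 1.22 with inhibitors, and the difference of 0.85 ± 0.13 passed the test (adjusted p = 6.17e-05). The lactate receptor Hcar1 fell by 0.98 and its relative Hcar2, a nicotinic acid receptor, rose by 0.97. Of 312 Zfp zinc finger genes 106 rose and 49 fell (34.0% and 15.7%), with a median of 0.10. By at least 2-fold 12 were higher and 3 lower, where 3.97% and 2.37% of all genes tested were, so the 12 are near that share. Under total-count scaling 59 rose and 75 fell, with a median of -0.0569. Plk2, a relative of Plk3, rose by 1.00 without and 1.16 with inhibitors.

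The gene groups not described so far had members that rose and members that fell, as did 26% and 25.4% of all genes tested. Several of these groups lay near or below those shares. Of 22 hypoxia-inducible factor targets 10 rose and 2 fell (45.5% and 9.09%). Of 23 semaphorin and plexin genes 9 rose and 7 fell (39.1% and 30.4%). Of 33 nuclear receptors 8 rose and 10 fell (24.2% and 30.3%). Lipogenesis genes rose and fell in 5 cases each of 24 (20.8% each), and LXR targets in 3 and 6 of 14 (21.4% and 42.9%). Insulin signalling genes rose in 5 and fell in 9 of 27 cases (18.5% and 33.3%). Autophagy and lysosome genes did so in 10 and 16 of 41 (24.4% and 39.0%), and proteasome subunits in 6 and 7 of 38 (15.8% and 18.4%). Under total-count scaling the lipogenesis genes rose in 2 and fell in 7 cases, 6 autophagy genes rose, and 1 proteasome gene rose and 16 fell. The proteasome falls numbered 2 without Vehicle sample 1, 4 without SR-3420 sample 1 and 3 without SR-3420 sample 3.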
